A study of Homo sapiens with 6 samples.

Results

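CYP24A1, the enzyme that inactivates hormonal vitamin D, was examined together with 5 genes of the same pathway: VDR, RXRA and RXRB, which encode the receptor and its partners, and CYP27B1 and CYP2R1, which encode the activating hydroxylases. These 6 genes, of 60612 in the deposited count table, were taken by symbol. CYP24A1 was chosen by its large measured log2 fold change between the groups compared here, and the other 5 genes with that difference known, to ask whether receptor or activating-enzyme levels differed alongside it. The differences of all 6 genes are therefore given as descriptions, without a test.

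The RNA came from HSC-3 cells, a long-established line of human tongue squamous carcinoma. Of 6 libraries, 3 came from cells labelled as overexpressing IRF9, a transcription factor of the interferon response, and 3 from control cells that the design text calls wild type and whose titles read kongbai. The construct and promoter, whether cells were clonal or pooled, and any empty vector in the controls are details not given in the sources used here. Separate cultures are not stated for the replicates either, so p-values reflect library-to-library spread, which may be technical only.

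Vitamin D is made active in steps. CYP2R1 hydroxylates it to calcidiol, mainly in the liver, and CYP27B1 converts calcidiol to the hormone calcitriol in the kidney and in other cells, keratinocytes among them. Calcitriol binds the vitamin D receptor VDR, which binds DNA as a heterodimer with a retinoid X receptor (RXRA, RXRB or RXRG), and CYP24A1 is the best known gene induced in this way. Its product hydroxylates both calcidiol and calcitriol and starts their breakdown.

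Total counts ranged from 69010768 to 85156099 in the IRF9-overexpressing libraries and from 61645349 to 77257645 in the control libraries. IRF9 itself stood at 435, 423 and 120 CPM (counts scaled to library size) in the overexpressing libraries, against 27.6, 25.1 and 44.6 CPM in the control libraries. Replicate 3 of the overexpressing group was the lowest of its group, but counts of the overlapping gene AL136295.5 were highest there, and the sum over IRF9, AL136295.5 and RNF31 was 551, 543 and 543 CPM in overexpressing libraries, against 127, 121 and 123 CPM in control libraries. Overexpressing replicate 1 stood somewhat apart, differing from the others of its group by 24.2 and 22.0 times the counting variance, against 9.26 to 12.7 times for the other pairs within a group. All 8 squamous epithelial markers were well expressed, with summed levels of 12240 to 12980 CPM in overexpressing libraries and 20550 to 21280 CPM in control libraries, and 6 of them were lower and 1, EPCAM, higher by the test described below. The leukocyte markers PTPRC, CD3E and CD53, the endothelial markers PECAM1 and TIE1 and the fibroblast marker COL3A1 were at or below 0.2 CPM in every library. Other genes of these lists were present: the fibroblast list summed to 47.5 to 51.7 CPM in overexpressing and 75.7 to 80.5 CPM in control libraries, the leukocyte list to 74.7 to 82.0 CPM in overexpressing and 79.6 to 83.1 CPM in control libraries, and the endothelial list to 15.5 to 16.1 CPM in overexpressing and 9.18 to 11.2 CPM in control libraries. By edgeR's test LUM and CD68 were lower (11.3 and 69.6 CPM in overexpressing cells, against 38.9 and 77.3 CPM in control cells), and PDGFRB, LAPTM5, CDH5 and EGFL7 were higher (1.69, 7.53, 1.35 and 13.5 CPM in overexpressing cells, against 0.487, 3.82, 0.493 and 8.82 CPM in control cells). Their part in the results below was not tested.

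CYP24A1 (ENSG00000019186, GRCh38 chr20:54153446-54173986, minus strand) had 7931, 6773 and 7810 counts in the overexpressing libraries, against 681, 705 and 494 in the control libraries. Scaled for depth and composition, these were 91.3, 95.4 and 96.4 CPM in overexpressing cells, against 9.05, 9.69 and 8.17 CPM in control cells. Every overexpressing library lay far above every control library, and each group was tight, with a coefficient of variation of 2.84% in overexpressing and 8.49% in control libraries. The mean was 94.4 ± 2.68 CPM in overexpressing cells and 8.97 ± 0.762 CPM in control cells (SD, n = 3 each), a log2 fold change of 3.39 with a standard error (SE) of 0.07, or 10.5-fold. Ordered from the most raised to the most lowered log2 fold change, CYP24A1 held rank 31 of 19034 genes tested and rank 3 of the 11588 genes that reached 5 CPM or more on average in their higher group. In bulk RNA, more expressing cells and more RNA per cell cannot be told apart.

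VDR (ENSG00000111424, chr12:47841537-47943048, minus strand), the receptor through which calcitriol acts on transcription, was measured at 43.4, 48.9 and 48.0 CPM in overexpressing libraries, against 37.8, 39.3 and 41.5 CPM in control libraries. The groups did not overlap, but the lowest overexpressing library, replicate 1, was close to the highest control library. Mean levels were 46.8 ± 2.98 CPM in overexpressing cells and 39.5 ± 1.86 CPM in control cells (SD, n = 3 each), a log2 fold change of 0.24 (SE 0.06), or 1.18-fold.

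RXRA (ENSG00000186350, chr9:134317098-134440585, plus strand), the most abundant of the retinoid X receptors measured here, ran the other way. It was at 244, 248 and 255 CPM in overexpressing libraries, against 303, 307 and 302 CPM in control libraries. All 3 overexpressing libraries lay below all 3 controls. The mean was 249 ± 5.80 CPM in overexpressing cells and 304 ± 2.89 CPM in control cells (SD, n = 3 each), a log2 fold change of -0.29 (SE 0.03).

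RXRB (ENSG00000204231, chr6:33193588-33200665, minus strand) stood at 42.9, 40.6 and 45.5 CPM in overexpressing libraries, against 41.3, 46.8 and 45.2 CPM in control libraries. The groups overlapped, and the log2 fold change was -0.04 (SE 0.06), which turned to 0.02 when libraries were scaled by total counts alone. The library kit does not mark strand and the use of strand in counting is not given, so reads in the 221 bases that RXRB shares with SLC39A7 on the other strand cannot be assigned with certainty. SLC39A7 had a log2 fold change of -0.02. The same limit holds for the 1744 bases that VDR shares with AC121338.2, a long non-coding RNA gene on the other strand. AC121338.2 averaged 0.962 CPM in overexpressing and 0.724 CPM in control cells and had a log2 fold change of 0.44 (SE 0.36). The remaining retinoid X receptor, RXRG, was at 0, 0.127 and 0 CPM in overexpressing libraries, against 0 in each control library, and was too low to test.

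CYP27B1 (ENSG00000111012, chr12:57762334-57768986, minus strand), the enzyme that makes calcitriol, was scarce. It had 174, 95 and 114 counts in overexpressing libraries, against 28, 56 and 30 in control libraries, which is 2.00, 1.34 and 1.41 CPM in overexpressing cells, against 0.372, 0.770 and 0.496 CPM in control cells. Each overexpressing library was above each control, but the libraries of a group differed more than for any other of the 6 genes, with coefficients of variation of 23.1% in overexpressing and 37.2% in control libraries. The log2 fold change was 1.55 (SE 0.34), or 2.92-fold, and with 1 library left out it ran from 1.31 without control replicate 1 to 1.90 without control replicate 2.

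The difference in CYP27B1 depended on how it was expressed. On the scale of log2(FPKM + 1), where FPKM is a level per transcript length and sequencing depth, it was 0.43, since the added 1 exceeds the gene's own level. CYP27B1 also shares 516 bases with METTL1, a tRNA methyltransferase gene on the same strand that was at 9.83, 9.98 and 8.60 CPM in overexpressing libraries, against 9.37, 8.38 and 11.1 CPM in control libraries. For METTL1 the log2 fold change was -0.01, and for the sum of both genes it was 0.13. Whether some of the CYP27B1 counts are METTL1 reads was not tested.

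CYP2R1 (ENSG00000186104, chr11:14877440-14892252, minus strand), the enzyme that makes calcidiol, was at 12.5, 15.1 and 13.4 CPM in overexpressing libraries, against 12.3, 12.6 and 12.9 CPM in control libraries. The groups overlapped, since overexpressing replicate 1 lay within the control range. The log2 fold change was 0.11 (SE 0.09).

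**Figure D1:**
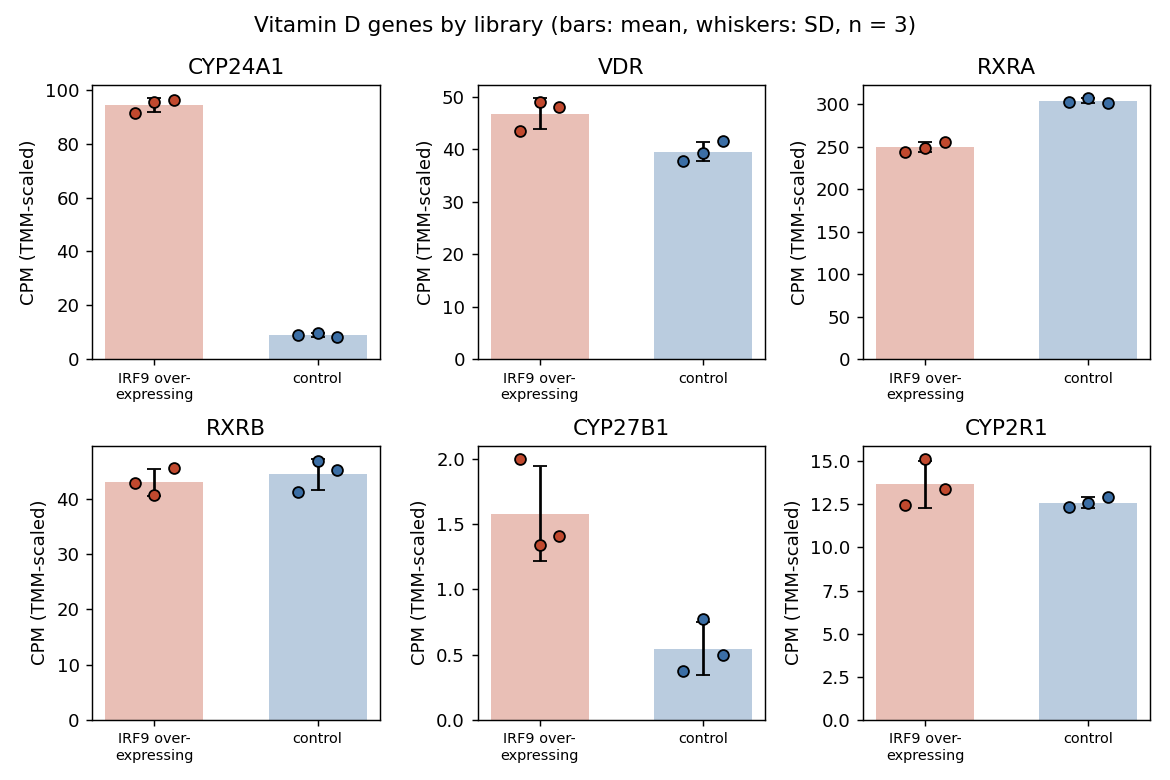
Level of each of the 6 genes in every library, in CPM, with a separate panel and linear axis for each gene. IRF9-overexpressing libraries are left of control libraries. Points are libraries, bars are group means and whiskers are SD. CYP24A1 stands apart by 10.5-fold, CYP27B1 differs at a low level, and the receptors and CYP2R1 lie within 1.22-fold between groups.

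All 6 genes passed the filter on low counts. The groups did not overlap for 4 of them, CYP24A1, VDR, RXRA and CYP27B1, and overlapped for RXRB and CYP2R1. Over all 19034 genes tested, 48.6% had groups that did not overlap. The plot of the 6 genes by library shows how far the difference in CYP24A1 exceeds those of its receptor, the receptor's partners and CYP2R1.

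Levels of different genes were set side by side per length, in FPKM. In overexpressing cells the order was RXRA at 39.0, CYP24A1 at 32.1, RXRB at 13.8, VDR at 9.20, CYP2R1 at 6.47 and CYP27B1 at 0.651 FPKM. In control cells it was RXRA at 45.8, RXRB at 14.3, VDR at 7.82, CYP2R1 at 5.72, CYP24A1 at 2.99 and CYP27B1 at 0.223 FPKM. CYP24A1 thus stood at position 2 in overexpressing cells and at position 5 in control cells, and the other 5 kept their order among themselves. The libraries of neighbouring genes in either order did not overlap.

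The RNA ratios of the inactivating to the activating enzymes followed from this. CYP24A1 was 5.50, 4.53 and 4.98 times CYP2R1 in FPKM in overexpressing libraries, against 0.566, 0.548 and 0.460 times in control libraries. Relative to CYP27B1 it was 40.6, 59.6 and 50.9 times in overexpressing libraries, against 24.7, 9.94 and 12.4 times in control libraries. Both ratios were higher in every overexpressing library than in any control. CYP24A1 was chosen for its large difference, so higher ratios were largely set by that choice. The ratio to CYP27B1 also rests on the low level of CYP27B1.

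RXRA stood less far above VDR and RXRB in overexpressing cells. It was 4.55, 3.97 and 4.24 times VDR in FPKM in overexpressing libraries, against 6.01, 5.99 and 5.58 times in control libraries. RXRA was 2.81, 2.94 and 2.73 times RXRB in overexpressing libraries, against 3.40, 3.08 and 3.12 times in control libraries. Both ratios were lower in every overexpressing library.

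**Figure D2:**
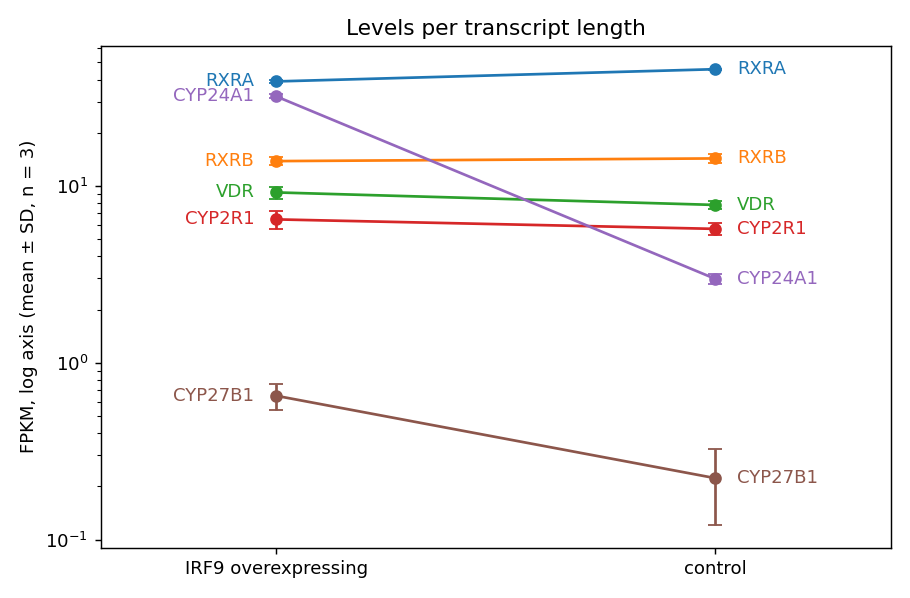
Mean level of each of the 6 genes per length, in FPKM on a log axis, in IRF9-overexpressing cells on the left and control cells on the right, with a line joining each gene and error bars of 1 SD over 3 libraries. The line of CYP24A1 crosses those of RXRB, VDR and CYP2R1, while the other 5 genes keep their order.

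By a Euclidean distance over the 6 libraries between profiles of log2 CPM, each centred on its own mean, the genes most like CYP24A1 were GDF15 at 0.406, EGR1 at 0.461, CCN2 at 0.596, EGR2 at 0.716 and HES7 at 0.723. GDF15, a secreted stress cytokine, was at 67.1, 60.1 and 57.3 CPM in overexpressing libraries, against 6.17, 6.60 and 6.95 CPM in control libraries. EGR1, an immediate early transcription factor, was at 788, 729 and 769 CPM in overexpressing libraries, against 92.6, 85.8 and 93.7 CPM in control libraries. Both shared with CYP24A1 a wide gap between tight groups, as their selection by this distance required. The profiles nearest to that of VDR were PPIH at 0.0537, EIF2AK4 at 0.0551 and NPC1 at 0.056, all with small differences.

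CYP24A1 lies on chromosome 20, and 24 other genes lie within 1 Mb of it, of which 6 could be tested. By edgeR's quasi-likelihood test with Benjamini-Hochberg adjustment over all genes, with adjusted p under 0.05 counted as a call, 2 of the 6 were higher, 0 were lower and 4 were not called. None was lower at an unadjusted p under 0.05 in edgeR (0 genes), nor by DESeq2 or limma-voom (0 genes each). Over all genes tested, 37.4% were called, 19.2% as higher and 18.2% as lower. PFDN4, a prefoldin subunit that begins 34.1 kb from CYP24A1, rose to 46.6, 43.6 and 47.4 CPM in overexpressing libraries, against 28.7, 29.9 and 31.3 CPM in control libraries. Its groups did not overlap, and its log2 fold change was 0.62 (SE 0.06, edgeR adjusted p = 5.54e-06).

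ZNF217, a zinc finger transcription factor 544 kb away, rose to 114 ± 1.96 CPM in overexpressing cells, against 93.0 ± 1.63 CPM in control cells (SD, n = 3 each), with a log2 fold change of 0.29 and an edgeR adjusted p of 0.000111. BCAS1, the nearest tested gene on the other side at 82.9 kb, was near the lowest levels tested, with a log2 fold change of -0.52 (SE 0.58, edgeR adjusted p = 0.522). Log2 fold changes were -0.82 for AL354993.2, -0.22 for TSHZ2 and -0.26 for RPL12P4. The 10.5-fold difference of CYP24A1 had no counterpart of like size among these neighbours, as the plot by distance shows.

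**Figure D3:**
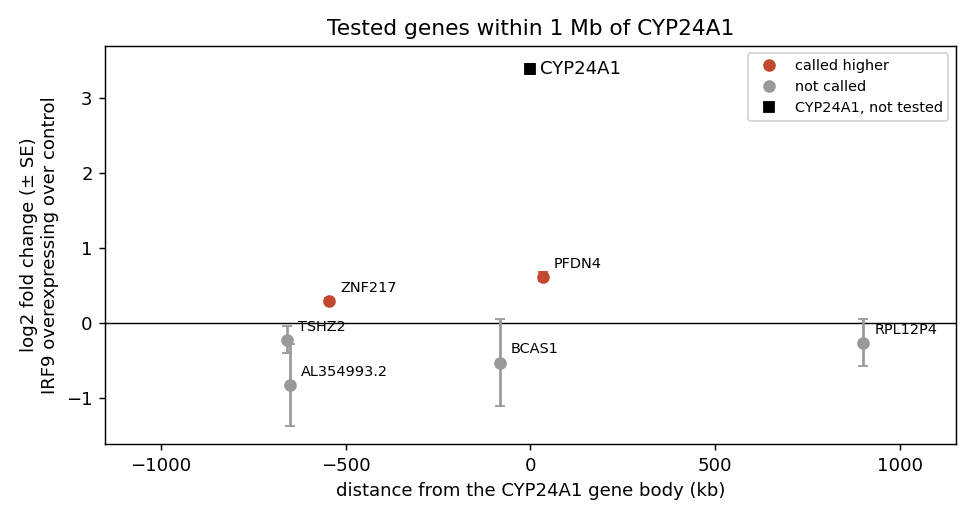
Log2 fold change, IRF9-overexpressing minus control, of the tested genes within 1 Mb of CYP24A1 against their distance from it in kb, with error bars of 1 SE. CYP24A1 is at 3.39, and the highest neighbour, PFDN4, is at 0.62.

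Beyond the 6 genes, 8 lists of related genes were described by how many members were called and by their median, beside the same over all genes. Together they held 155 tested genes, of which 47 were higher, 39 lower and 69 not called, 55.5% called against 37.4% of all genes. Among the 11588 genes that averaged 5 CPM or more in their higher group 51.1% were called. The share of the lists together at that level was not computed. By list it ran from 38.5% for electron donors and haem genes to 80.6% for VDR targets. The median log2 fold change was 0.07 over the lists and 0.00 over all genes.

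Of the carriers, other hydroxylases and endocrine partners of vitamin D, 12 of 24 could be tested. By edgeR 0 were higher, 3 lower and 9 not called, with a median of -0.27 on the log2 scale. The share called was smaller than the 37.4% of all genes. Among the 5 that averaged 5 CPM or more in their higher group 3 were called, against 51.1% of all genes at that level. The number higher among the 12 was also 0 at an unadjusted p under 0.05 in edgeR and by DESeq2 and limma-voom. DHCR7, which diverts the skin precursor of vitamin D into cholesterol, fell to 148, 150 and 148 CPM in overexpressing libraries, against 221, 222 and 227 CPM in control libraries (log2 fold change -0.59, edgeR adjusted p = 9.81e-08). PDIA3, a protein disulfide isomerase that has been described as a membrane receptor for calcitriol, fell to 582 ± 8.90 CPM in overexpressing cells, against 684 ± 11.4 CPM in control cells (SD, n = 3 each). PTHLH, the parathyroid hormone-related protein that drives hypercalcaemia in squamous cancers, fell to 146, 141 and 142 CPM in overexpressing libraries, against 317, 315 and 312 CPM in control libraries (log2 fold change -1.14, edgeR adjusted p = 2.39e-10).

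CYP27A1, another mitochondrial vitamin D hydroxylase, was at 0.484, 0.267 and 0.234 CPM in overexpressing libraries, against 0.385, 0.137 and 0 CPM in control libraries. Its groups overlapped, and its log2 fold change of 0.83 had an SE of 0.69 (edgeR adjusted p = 0.381). The vitamin D binding protein gene GC had 0 counts in every library.

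Mitochondrial P450 enzymes such as CYP24A1 and CYP27B1 receive electrons from ferredoxin, FDX1, and its reductase, FDXR, and neither was called. FDX1 was at 16.0, 15.3 and 15.4 CPM in overexpressing libraries, against 16.2, 13.2 and 14.0 CPM in control libraries, and its log2 fold change was 0.10 (SE 0.09, edgeR adjusted p = 0.409). FDXR had a log2 fold change of -0.04 (SE 0.08, edgeR adjusted p = 0.748), and POR, which serves the P450 enzymes of the endoplasmic reticulum, one of -0.07 (SE 0.05, edgeR adjusted p = 0.314). Of 13 tested electron donors and haem synthesis genes, 3 were higher, 2 lower and 8 not called, with a median of 0.07. That is 38.5% called, near the 37.4% of all genes and below the 51.1% of those at 5 CPM or more.

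The calls named here among electron donors and haem genes were small, and each depended on 1 library or more. ALAS1 (log2 fold change 0.18, edgeR adjusted p = 0.0253) and PPOX (0.39, adjusted p = 0.0224) lost their calls without overexpressing replicate 1 (0.17 and 0.36), overexpressing replicate 3 (0.16 and 0.37), control replicate 1 (0.18 and 0.41) or control replicate 2 (0.15 and 0.28). CYB5R3 (-0.17, adjusted p = 0.0136) lost its call without overexpressing replicate 2 (-0.12), control replicate 1 (-0.15) or control replicate 2 (-0.15). PGRMC1 (-0.13, adjusted p = 0.0288) lost its call without overexpressing replicate 2 (-0.11), overexpressing replicate 3 (-0.14), control replicate 1 (-0.11), control replicate 2 (-0.14) or control replicate 3 (-0.13). Both CYB5R3 and PGRMC1 also lost their calls with library size only (-0.10 and -0.06) and on log2(FPKM + 1) (-0.10 and -0.04), and under these scalings 0 genes of the list were lower by edgeR or limma.

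Of the VDR target genes other than CYP24A1, 38 of 50 in the table could be tested. By edgeR's test 18 were higher, 10 lower and 10 not called, 73.7% called against 37.4% of all genes, with a median log2 fold change of 0.15. Among the 31 that averaged 5 CPM or more in their higher group 80.6% were called, against 51.1% of all genes at that level. THBD, thrombomodulin, a directly induced target in many cell types, rose to 100.2, 98.1 and 97.2 CPM in overexpressing libraries, against 42.7, 40.2 and 49.4 CPM in control libraries. Its groups were well separated (log2 fold change 1.16, SE 0.06, edgeR adjusted p = 4.75e-08).

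Other well known targets were not called or were too low to test. CD14, a co-receptor for bacterial lipopolysaccharide, was at 29.4, 24.4 and 24.2 CPM in overexpressing libraries, against 24.3, 22.9 and 25.02 CPM in control libraries, and was not called (log2 fold change 0.12, SE 0.08, edgeR adjusted p = 0.301). TRPV6, an epithelial calcium channel, was at 0.863, 1.17 and 0.975 CPM in overexpressing libraries, against 0.771, 0.797 and 0.728 CPM in control libraries, and was not called either (log2 fold change 0.37, SE 0.29, edgeR adjusted p = 0.352). CAMP, the cathelicidin gene, was too low to test, at 0, 0.0563 and 0 CPM in overexpressing libraries and 0, 0 and 0.132 CPM in control libraries.

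Among the higher targets with the smallest p were CCND1, MYC and TXNIP. CCND1, cyclin D1, rose to 341, 343 and 345 CPM in overexpressing libraries, against 177, 177 and 172 CPM in control libraries (log2 fold change 0.97, edgeR adjusted p = 7.82e-10). MYC rose to 356, 344 and 351 CPM in overexpressing libraries, against 178, 184 and 179 CPM in control libraries (log2 fold change 0.96, edgeR adjusted p = 1.28e-09). Calcitriol is known to lower MYC, CCND1 and PTHLH in several cell types, and of these 3 only PTHLH was lower in overexpressing cells. TXNIP, thioredoxin-interacting protein, known in leukaemia cells as a gene raised by calcitriol, rose to 2755 ± 38.0 CPM in overexpressing cells, against 1725 ± 9.35 CPM in control cells (SD, n = 3 each).

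Other targets known to be induced by calcitriol fell. IGFBP3, a binding protein for insulin-like growth factors, fell to 1101, 1068 and 1063 CPM in overexpressing libraries, against 3613, 3637 and 3625 CPM in control libraries. This was the lowest fold of the list (log2 fold change -1.75, SE 0.03, edgeR adjusted p = 1.83e-12), and the groups were far apart. DUSP10, a phosphatase of the stress kinases, fell to 19.8, 20.3 and 20.7 CPM in overexpressing libraries, against 41.6, 41.0 and 43.5 CPM in control libraries (log2 fold change -1.05, edgeR adjusted p = 4.14e-08). CDH1, E-cadherin, chosen for mention after its values were seen, fell to 280 ± 12.2 CPM in overexpressing cells, against 357 ± 3.13 CPM in control cells (SD, n = 3 each).

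Also chosen after their values were seen, AREG, GADD45A, SEMA3B and CDKN1A were higher. AREG, amphiregulin, a ligand of the epidermal growth factor receptor, rose to 87.6 ± 4.40 CPM in overexpressing cells, against 28.7 ± 2.35 CPM in control cells (SD, n = 3 each), with a log2 fold change of 1.61 and an edgeR adjusted p of 2.54e-09. GADD45A and CDKN1A, both induced by DNA damage and able to halt the cell cycle, had log2 fold changes of 1.07 (edgeR adjusted p = 3.84e-08) and 0.28 (edgeR adjusted p = 0.00112). SEMA3B, a secreted semaphorin, had one of 1.14 (edgeR adjusted p = 3.9e-05).

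**Figure D4:**
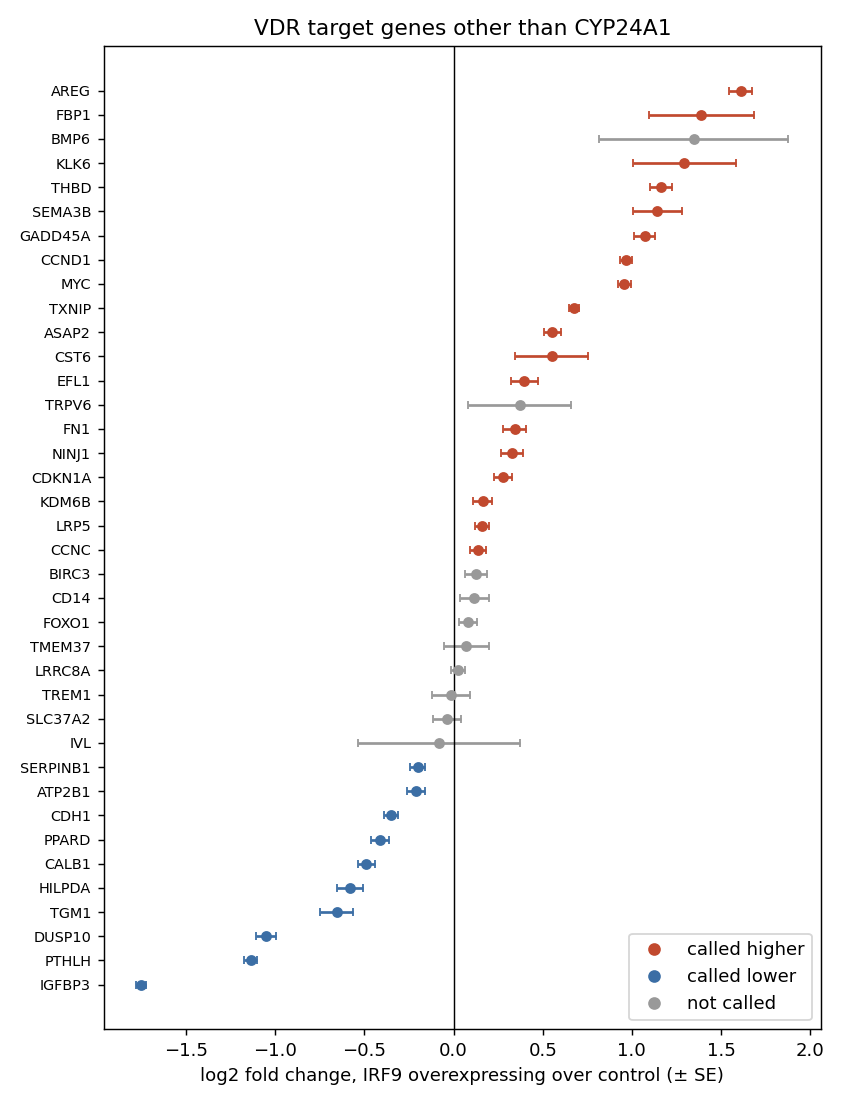
Log2 fold change, IRF9-overexpressing minus control, of the 38 tested VDR target genes, with error bars of 1 SE and colours for higher, lower and not called. The targets run from IGFBP3 at -1.75 upward, 18 higher and 10 lower. All lie below the 3.39 of CYP24A1, which is not drawn.

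Of 30 VDR coactivators, corepressors and chromatin partners, all tested, 4 were higher, 12 lower and 14 not called. Their median log2 fold change was -0.10, and 53.3% were called, against 37.4% of all genes. Among the 29 that averaged 5 CPM or more in their higher group 51.7% were called, which is near the 51.1% of all genes at that level. On log2(FPKM + 1) and log2(FPKM + 0.1), 7 and 6 of the list were lower in place of 12. NCOA2, a p160 coactivator that binds VDR bound to its ligand, fell to 44.5, 52.8 and 50.5 CPM in overexpressing libraries, against 82.7, 88.9 and 91.1 CPM in control libraries (log2 fold change -0.83, edgeR adjusted p = 9.83e-07). NCOA3, of the same family, fell to 150.0, 177 and 173 CPM in overexpressing libraries, against 237, 240 and 248 CPM in control libraries (log2 fold change -0.54, edgeR adjusted p = 1.18e-05). In both genes overexpressing replicate 1, the library that stood somewhat apart, was the lowest of its group, and without it 6 coregulators were higher and 9 lower.

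HMGN3, a nucleosome-binding protein, fell by 0.47 on the log2 scale (edgeR adjusted p = 6.53e-05). CARM1, an arginine methyltransferase recruited by p160 coactivators, rose, with a log2 fold change of 0.24 (edgeR adjusted p = 0.00417). MED1, the Mediator subunit that contacts VDR, was at 61.97, 80.8 and 79.4 CPM in overexpressing libraries, against 76.1, 91.5 and 84.8 CPM in control libraries, and was not called (log2 fold change -0.19, SE 0.09, edgeR adjusted p = 0.137).

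The remaining calls named from the coregulators rested on single libraries. HR, the corepressor hairless, had a log2 fold change of -0.25 (edgeR adjusted p = 0.0126) and lost its call without control replicate 2, at -0.19. NRIP1 (0.24, adjusted p = 0.0196) lost it without overexpressing replicate 2 (0.19), overexpressing replicate 3 (0.22) or control replicate 1 (0.19). TBL1XR1 (0.12, adjusted p = 0.0206) lost it without overexpressing replicate 3 (0.10), control replicate 1 (0.11) or control replicate 3 (0.11). HR, NRIP1 and TBL1XR1 also lost their calls on log2(FPKM + 1) (-0.11, 0.24 and 0.04). Over the list, leaving out 1 library gave 1 to 6 higher and 7 to 12 lower genes, with 1 higher without overexpressing replicate 3 or control replicate 1, 2 higher without overexpressing replicate 2 or control replicate 3, and 7 lower without control replicate 2.

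RXRA and RXRB also pair with other nuclear receptors. Of 12 tested partner genes, 4 were higher, 2 lower and 6 not called, with a median of 0.12. The share called was larger than the 37.4% of all genes. Among the 8 partner genes that averaged 5 CPM or more in their higher group 62.5% were called, against 51.1% of all genes at that level. NR4A1, an immediate early orphan receptor, rose to 14.3, 13.5 and 16.9 CPM in overexpressing libraries, against 3.83, 3.20 and 3.08 CPM in control libraries (log2 fold change 2.14, SE 0.13, edgeR adjusted p = 1.55e-07). THRA, a thyroid hormone receptor, rose (0.38, edgeR adjusted p = 0.000193), and PPARD (-0.41, edgeR adjusted p = 3.25e-05) and RARG (-0.21, edgeR adjusted p = 0.00379) fell. RARG lost its call on log2(FPKM + 1) (-0.14) and log2(FPKM + 0.1) (-0.15).

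RARA, the retinoic acid receptor alpha gene, was not called (log2 fold change 0.06, edgeR adjusted p = 0.58). PPARA had a log2 fold change of 0.20 (edgeR adjusted p = 0.0424) that lost its call without overexpressing replicate 2 (0.12), overexpressing replicate 3 (0.20), control replicate 1 (0.18), control replicate 2 (0.22) or control replicate 3 (0.21), and on log2(FPKM + 1) (0.16). Leaving out 1 library gave 2 to 3 higher partner genes, with 2 without overexpressing replicate 3 or control replicate 3.

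Retinoic acid reaches the same RXR partners, and of 20 tested genes of retinoid metabolism and response 5 were higher, 4 lower and 11 not called, with a median of 0.23. That is 45.0% called, against 37.4% of all genes, and 50% against 51.1% at 5 CPM or more. ALDH1A3, which makes retinoic acid, rose to 86.2, 86.1 and 90.3 CPM in overexpressing libraries, against 40.4, 37.4 and 35.7 CPM in control libraries (log2 fold change 1.21, edgeR adjusted p = 7.07e-09). DHRS3, a retinal reductase induced by retinoic acid, rose (0.73, edgeR adjusted p = 7.66e-06), as did the transglutaminase TGM2 (0.62, edgeR adjusted p = 4.85e-07). CYP26B1, which degrades retinoic acid as CYP24A1 degrades calcitriol, was not called, at 14.1 ± 1.04 CPM in overexpressing cells and 12.4 ± 1.11 CPM in control cells (SD, n = 3 each; log2 fold change 0.19, edgeR adjusted p = 0.125).

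FABP5 (-0.38, edgeR adjusted p = 3.77e-05), a fatty acid binding protein that can carry retinoic acid, and PLAAT4 (-0.46, edgeR adjusted p = 0.000634), a gene induced by retinoids, fell. BCO2, which cleaves carotenoids, was at most 0.447 CPM in any library, and its log2 fold change of -1.96 (edgeR adjusted p = 0.0316) lost its call without overexpressing replicate 1 (-2.30), overexpressing replicate 2 (-2.03), overexpressing replicate 3 (-1.63), control replicate 2 (-1.91) or control replicate 3 (-1.63). With overexpressing replicate 2, overexpressing replicate 3 or control replicate 3 left out, 2 of the retinoid genes were lower in place of 4.

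Of 14 tested factors reported in the literature to act at the CYP24A1 promoter, 8 were higher, 3 lower and 3 not called, with a median of 0.23. The share called was 78.6%, against 37.4% of all genes and 51.1% of those at 5 CPM or more. FOS rose to 113, 105 and 110 CPM in overexpressing libraries, against 16.6, 15.9 and 15.8 CPM in control libraries (log2 fold change 2.76, SE 0.05, edgeR adjusted p = 8.51e-12). FOSL1 rose to 155, 144 and 148 CPM in overexpressing libraries, against 33.9, 37.7 and 36.4 CPM in control libraries (2.05, edgeR adjusted p = 6.35e-11). JUN, which pairs with FOS and FOSL1 in the AP-1 complex, rose to 127, 123 and 128 CPM in overexpressing libraries, against 58.8, 55.0 and 58.1 CPM in control libraries (1.14, edgeR adjusted p = 2.1e-09).

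These 3 AP-1 genes were named for the smallest p among the higher genes of the list. Their overexpressing libraries all lay above the controls, as that choice favoured. Over all genes tested, 48.6% had groups that did not overlap. The list also held JUNB and JUND, named after their values were seen. JUNB rose (0.95, edgeR adjusted p = 1.34e-08). JUND was not called, at 72.8 CPM in overexpressing and 72.9 CPM in control cells (edgeR adjusted p = 0.997), and its groups overlapped. ETS1 (log2 fold change 0.41, edgeR adjusted p = 0.00136) and CEBPB (0.33, edgeR adjusted p = 0.000652) rose less. BCL6, a repressor, fell (-0.77, edgeR adjusted p = 8.88e-08), as did SP1 (-0.35, edgeR adjusted p = 8.21e-05) and ETS2 (-0.19, edgeR adjusted p = 0.00143). Whether any of these factors has a part in the level of CYP24A1 was not tested.

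Among the other cytochrome P450 genes 23 of 52 could be tested, and 5 were higher, 5 lower and 13 not called, with a median of 0.12. That is 43.5% called, against 37.4% of all genes, and 58.3% against 51.1% at 5 CPM or more. CYP1A1, a target of the aryl hydrocarbon receptor, rose to 88.4, 81.4 and 79.9 CPM in overexpressing libraries, against 28.8, 27.5 and 30.3 CPM in control libraries (log2 fold change 1.53, SE 0.06, edgeR adjusted p = 1.99e-09). CYP1B1, of the same family, rose (0.50, edgeR adjusted p = 1.05e-06), and so did CYP2S1 (0.43, edgeR adjusted p = 0.000507). CYP51A1, which demethylates lanosterol on the way to cholesterol, fell (-0.47, edgeR adjusted p = 1.81e-06).

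CYP20A1 (-0.64, edgeR adjusted p = 0.000722) and CYP7B1, an oxysterol hydroxylase (-0.90, edgeR adjusted p = 0.0106), also fell by edgeR's test, but lost their calls on log2(FPKM + 1) (-0.17 and -0.18) and log2(FPKM + 0.1) (-0.27 and -0.61), where 1 gene of the list was lower in place of 5. By log2 fold change CYP24A1 stood above every other tested member of the superfamily, with CYP27B1 and CYP1A1 next to it. The rest lay between CYP7B1 and CYP2E1, at -0.90 and 1.39. Without control replicate 3, 3 of these P450 genes were lower in place of 5.

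**Figure D5:**
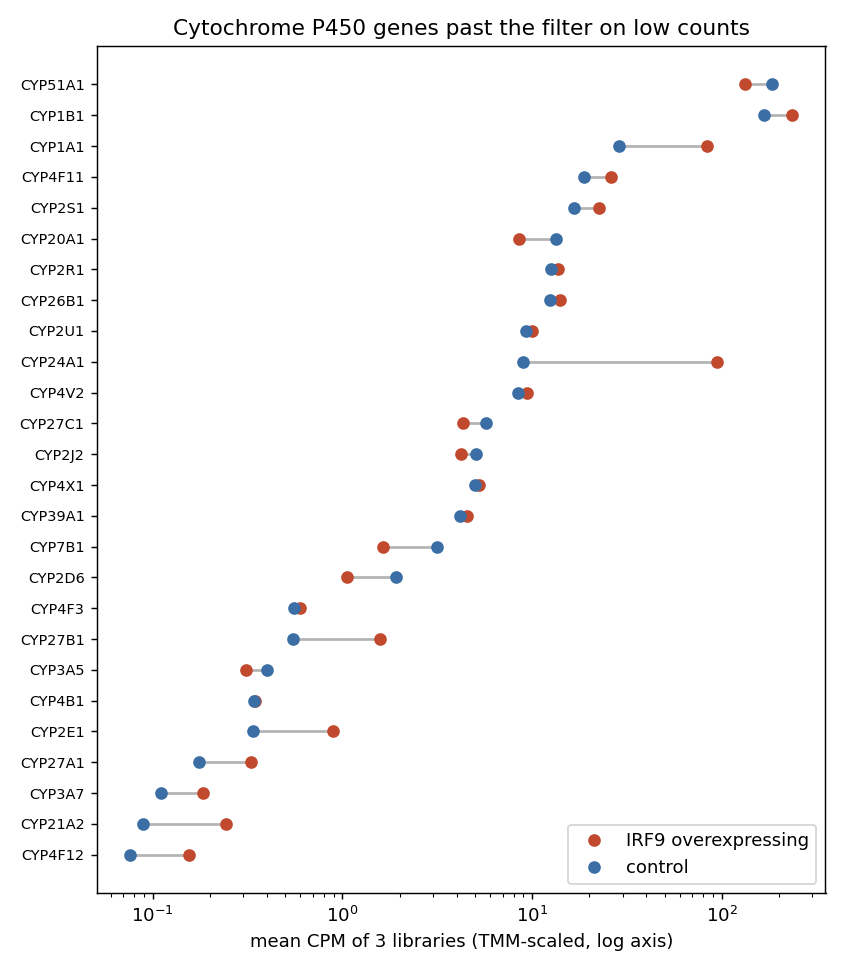
Mean level, in CPM on a log axis, of CYP24A1, CYP27B1, CYP2R1 and 23 other tested cytochrome P450 genes in IRF9-overexpressing and control cells. A line joins the means of each gene. CYP24A1 is at 94.4 CPM in overexpressing and 8.97 CPM in control cells, and CYP27B1 at 1.58 and 0.546 CPM.

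Sequence of 250 bases before RefSeq transcript starts (GRCh38.p14) was at hand for 3 of the 6 genes, RXRA, RXRB and CYP2R1, in 7 windows in all, and was searched on both strands for sites that VDR and its partners bind. A vitamin D response element is typically a direct repeat of a 6-base site, here A or G, then G, then G or T, then T, then C or G, then A, with 3 bases between the copies. The repeat was found in 0.242% of 27305 genes with a promoter, in 0 of these 3 genes and in 0 of 38 VDR target genes. The single site was found in 60.6% of all genes and in all 3 members. These shares are not alike, since a gene counted if any window held the site. The 3 members had 7 windows, and the 27305 genes had 35116. The interferon-type motif, GAAA repeated after any 2 bases, was found in 3.71% of all genes, in 0 of the 3 members and in 2 of the 38 VDR target genes. The windows of RXRA, the partner that was lower, and CYP2R1, whose groups overlapped, are shown as examples of such windows; the single sites are in capitals, 1 in RXRA (chr9:134326205-134326454, plus strand) and 2 in CYP2R1 (chr11:14892444-14892693, minus strand), in stretches with a GC content of 89.2% and 46.8%. The RXRA window precedes a RefSeq start that lies inside the span of RXRA in the authors' table, downstream of the start given there.
RXRA: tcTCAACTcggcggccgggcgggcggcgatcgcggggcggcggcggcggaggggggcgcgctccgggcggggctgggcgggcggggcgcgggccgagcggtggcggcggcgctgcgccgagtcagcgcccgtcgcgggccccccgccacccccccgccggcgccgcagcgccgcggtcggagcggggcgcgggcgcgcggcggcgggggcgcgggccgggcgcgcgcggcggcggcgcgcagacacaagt
CYP2R1: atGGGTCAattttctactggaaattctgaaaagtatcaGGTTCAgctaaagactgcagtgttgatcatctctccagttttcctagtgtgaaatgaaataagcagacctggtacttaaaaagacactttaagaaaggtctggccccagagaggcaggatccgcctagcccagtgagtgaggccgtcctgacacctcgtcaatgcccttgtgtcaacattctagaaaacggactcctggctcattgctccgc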

How the data were processed

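Counts per gene for 60612 genes and a table of normalised values with symbols and GRCh38 positions were deposited by the authors for 3 IRF9-overexpressing and 3 control libraries. The unit of the deposited normalised values was taken as FPKM from the values, since its header gives no unit. Per the submitters' processing notes, the build was GRCh38 and edgeR, StringTie, HISAT2, FastQC, Trimmomatic and CASAVA 1.8 were among the tools, in no stated role or order. The release of the annotation and whether counting used strand were not given in the sources used here.

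The deposited counts were fitted with edgeR 4.0.16 (R 4.3.3): filterByExpr (minimum count 10, minimum total 15), TMM scaling, a quasi-likelihood fit (legacy set to false) on group, and Benjamini-Hochberg adjustment over 19034 genes, called at an adjusted p under 0.05. The code was tested on simulated data. CPM are TMM-scaled, and levels between genes use FPKM. Each log2 fold change is overexpressing minus control. The common biological coefficient of variation was 0.135, and mitochondrial genes held 5.79% to 6.29% of counts.

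The members and lists were chosen with earlier results of these data known. Named genes were the members, fixed genes of each list, its 3 called genes with the smallest p in each direction, the nearest tested neighbours and the genes most like CYP24A1 and VDR. CDH1, AREG, GADD45A, SEMA3B, CDKN1A, JUNB, JUND and CYP2E1 are outside this rule and were named after their values were seen. Alternatives were DESeq2 1.42.0, its size factors, limma-voom (limma 3.58.1), library size only, other filters, a 2-fold minimum, log2(FPKM + 1) and log2(FPKM + 0.1), a replicate block and leaving out each library. The legacy edgeR fit was added after seeing the data. The 12 genes held by more than 1 list count under each. RefSeq promoters (GRCh38.p14) were searched for letters only. Some genes that the rule names are not reported here.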

Additional observations from a re-analysis of the deposited data

How the results depend on the processing

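The log2 fold change of CYP24A1 was 3.39 and ranged from 3.05 on log2(FPKM + 1) to 3.46 with library size only, and from 3.33 to 3.45 when 1 library was left out. Over all alternatives VDR stayed between 0.21 and 0.31, RXRA between -0.31 and -0.22, RXRB between -0.10 and 0.02, CYP2R1 between 0.04 and 0.18 and CYP27B1 between 0.43 and 1.90, or 0.13 when summed with METTL1. Of all genes, 3648 were called higher and 3473 lower. With a 2-fold minimum there were 669 higher and 421 lower, and the lists together held 14 higher and 4 lower, of which the VDR targets held 6 and 3. On log2(FPKM + 1) and log2(FPKM + 0.1) 2090 and 2074 genes were lower, and 25 and 24 of the lists together. Without TMM, 64.5% of calls were higher, against 51.2% with it, and on the FPKM scales 64.5% and 64.7%. Leaving out 1 library gave 2981 to 3539 higher and 2803 to 3373 lower genes, 35 to 45 higher and 31 to 36 lower in the lists together, and 15 to 19 higher and 10 lower VDR targets. Same-numbered libraries of the groups had deviations correlated at 0.104, 0.0117 and -0.0417, so the numbers were not treated as pairs; with a replicate block, 3799 genes were higher and 3659 lower, the lists together had 47 and 37, and the VDR targets 18 and 10; MED1 gained a call (-0.19, edgeR adjusted p = 0.00681). The legacy edgeR fit, chosen after seeing the data, gave 3501 and 3314. The tested list genes taken by the naming rule, with PFDN4, ZNF217, METTL1 and SLC39A7, made 60 genes. Other neighbours and overlapping genes were not followed in this way. For these 60 genes, 891 of 958 values over 16 alternative fits kept their call status. Another 65 values, from 13 genes, lost the call, and 2 gained it. Among genes called in the main fit 0 values reversed direction, and direction was not compared for genes not called. The cause of these changes was not tested. A comparison by CPM divided by gene length was not run, since the table holds no transcript length. Low counts limit CYP27B1, CYP27A1, BCAS1 and BCO2.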
